A study of Mus musculus with 8 samples.

Results

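Wnt ligands, their Frizzled receptors and the secreted proteins that hold Wnt signals back were followed in sorted mouse sarcoma cells. The members were the 39 protein-coding genes whose symbol begins with Wnt, Fzd, Sfrp or Dkk and a digit, plus Wif1 and Frzb, of 35498 genes in the files. They comprised 19 ligands, 10 receptors and 10 secreted inhibitors. Wnt proteins are lipid-modified growth factors that bind Frizzled together with LRP5 or LRP6 and stabilise beta-catenin, or signal through ROR2, RYK and planar polarity proteins without it. Sfrp proteins, Frzb and Wif1 capture Wnt outside the cell, while Dkk1, Dkk2 and Dkk4 bind LRP6. In mesenchymal cells the pathway is known for steering progenitors towards bone and away from fat.

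The study asked what Mif, the gene of the cytokine macrophage migration inhibitory factor, does inside the tumour cells. All cells were of a C57BL/6 sarcoma line made from mesenchymal stem cells, described in the labels as p53-/- and Ccne1+ (cyclin E1 overexpressed), grown on polyurethane scaffolds subcutaneously in recipient mice and then sorted on a fluorescent marker. The 4 groups of 2 libraries each carried a hairpin against Mif (shMif), a control hairpin (shSCR), a guide against Mif (sgMif) or a control guide (sgSCR). The sample titles label shMif as Mif-KD (knockdown), sgMif as Mif-KO (knockout) and both control groups as Mif-WT (wild type). Cas9 is named for both systems in the design text and for the guide samples alone in the growth protocol, and neither says whether the cells were single clones, how old the mice were, or whether a group's 2 libraries are 2 mice. P-values therefore measure library-to-library spread only, part of which may be technical.

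Totals ran from 19042235 to 51819308 reads per library. Mif stood at 277 and 222 CPM (scaled reads per 1000000) for shMif, against 170 and 375 for shSCR, so the libraries labelled shMif did not hold less of it than both controls. Under the guide, sgMif had 221 and 222 CPM, against 377 and 454 in sgSCR (log2 fold change -0.91 ± 0.32 SE, edgeR adjusted p = 0.215). Trp53, the p53 gene, had 72.9 to 126 CPM and Ccne1 8.66 to 20.6 CPM over the 8 libraries, with no cells free of these changes to set them against. All 9 mesenchymal markers, such as Col1a1 and Vim, averaged at least 1 TPM, and their summed level was 13785 to 17854 TPM. The 9 keratinocyte markers summed to 2.66 to 6.99 TPM. Libraries also fell into a class with high reads on olfactory receptor genes, 1330 to 2544 CPM in 5 libraries, while library 2 of shMif had 553 CPM, that of shSCR 523 and that of sgMif 380.

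The sarcoma cells held transcripts of a small part of the family at appreciable levels. Levels are given in TPM, which is corrected for transcript length. Of the 39 members, 17 averaged at least 1 TPM and 7 at least 10 TPM. The 7 were the ligands Wnt7b, Wnt10a, Wnt10b and Wnt5a, the receptor Fzd2, and the inhibitors Dkk2 and Dkk3. Summed over the 10 inhibitors, the level was 160 ± 8.83 TPM in the libraries labelled shMif, 147 ± 10.05 in shSCR, 60.3 ± 4.41 in sgMif and 64.9 ± 6.28 in sgSCR (SD, n = 2 each). Over the 10 receptors it was 44.6 ± 1.63, 29.9 ± 6.64, 61.6 ± 6.58 and 65.6 ± 2.93 TPM in the same order of groups. The inhibitor sum was thus higher in every hairpin library than in any guide library, and the receptor sum was lower in every hairpin library. For the 19 ligands the sums were 149 ± 18.2 TPM in shMif, 131 ± 22.7 in shSCR, 130 ± 6.23 in sgMif and 130 ± 1.58 in sgSCR. Both shMif libraries, at 162 and 136 TPM, lay above every guide library. The shSCR libraries, at 115 and 147 TPM, overlapped each of the other groups, and sgMif overlapped sgSCR.

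**Figure D1:**
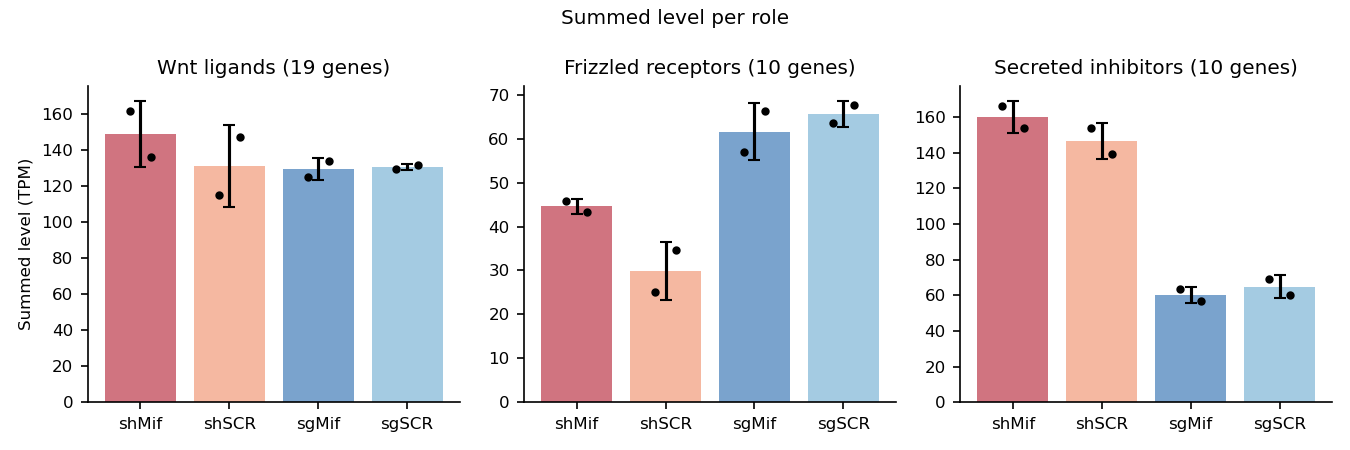
Summed level in TPM (vertical axes, from 0) of the 19 Wnt ligands, 10 Frizzled receptors and 10 secreted inhibitors in shMif, shSCR, sgMif and sgSCR. Bars are means of 2 libraries, error bars are SD and points are libraries; inhibitor sums lie between 140 and 166 TPM in the hairpin libraries and between 57.1 and 69.3 TPM in the guide libraries.

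Among the ligands, Wnt7b led in every library and made up 43.0 to 51.8% of the summed ligand level. Wnt7b, which acts through beta-catenin and is known from lung and vessel development, stood at 81.4 and 63.7 TPM in the libraries labelled shMif, 54.4 and 76.3 in shSCR, 64.1 and 65.6 in sgMif, and 55.6 and 64.4 in sgSCR. The Wnt7b values of the 4 groups overlapped. Wnt10a, a ligand of tooth and hair formation, stood at 27.4 and 21.2 TPM in shMif, 13.7 and 16.1 in shSCR, 18.6 and 15.2 in sgMif, and 20.4 and 19.2 in sgSCR. Wnt10b, which favours bone over fat in mesenchymal progenitors, stood at 17.2 and 14 TPM in shMif, 20.1 and 21 in shSCR, 12.1 and 18.4 in sgMif, and 16.8 and 15.5 in sgSCR. Wnt10a was thus above its control in both libraries labelled shMif and below it in both sgMif libraries, while Wnt10b was below its control in both libraries labelled shMif and overlapped in the guide system.

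The ligands of the branch that does not need beta-catenin were led by Wnt5a. Wnt5a, the best known of them, stood at 15.8 and 13.5 TPM in shMif, 14.7 and 18.1 in shSCR, 15.2 and 13.1 in sgMif, and 15.8 and 14.1 in sgSCR. Its close relative Wnt5b stood at 12.1 and 12.2 TPM in shMif, 9.02 and 11.4 in shSCR, 7.26 and 6.57 in sgMif, and 9.72 and 9.42 in sgSCR, so that both sgMif libraries lay below all the others. Wnt5b overlaps Fbxl14 on the opposite strand, and reads in the overlap cannot be told apart without strand information. Wnt11, which guides cell movements in embryos, stood at 1.19 and 2.41 TPM in shMif, 0.767 and 1.06 in shSCR, 0.877 and 2.36 in sgMif, and 2.09 and 0.692 in sgSCR, with replicates as far apart as groups.

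Of the remaining ligands, 3 are given in every library. Wnt9a, a ligand of joint formation, stood at 5.10 and 6.54 TPM in shMif, 1.32 and 2.03 in shSCR, 4.39 and 11.0 in sgMif, and 3.38 and 5.14 in sgSCR. It was higher in both libraries labelled shMif than in shSCR, while the sgMif and sgSCR ranges overlapped. Wnt6 stood at 1.08 and 1.95 TPM in shMif, 0.363 and 0.676 in shSCR, 0.977 and 1.29 in sgMif, and 2.12 and 1.24 in sgSCR. Wnt2b stood at 0.180 and 0.146 TPM in shMif, 0.0680 and 0.0427 in shSCR, 0.615 and 0.132 in sgMif, and 1.60 and 0.751 in sgSCR. Both sgSCR libraries were the highest for Wnt2b, and shSCR the lowest. Wnt4 at 0.151 to 0.718 TPM and Wnt2 at 0 to 0.710 TPM were the only other ligands past the filter on low counts. Wnt1, Wnt3, Wnt3a, Wnt8a, Wnt8b and Wnt16 reached at most 16 reads in any library. Wnt7a and Wnt9b had 0 of 270712172 reads over the 8 libraries, as did the inhibitor Sfrp5, which allows up to 0.0111 CPM over the pooled libraries.

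Members that lie side by side in the genome differed widely in level. In build mm10, 4 pairs lie within 100000 bases of each other. Wnt10b (chromosome 15) lies 11707 bases from Wnt1 and had 536 to 2355 reads per library, against 0 to 3 for Wnt1. Wnt9a (chromosome 11) lies 16176 bases from Wnt3a and had 145 to 1447 reads, against 0 to 2 for Wnt3a. Wnt10a (chromosome 1) lies 6194 bases from Wnt6 and averaged 19 TPM, against 1.21 TPM for Wnt6. Wnt3 and Wnt9b, the last pair, were both at or near 0.

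Of the receptors, Fzd2 stood at 23.6 and 24.6 TPM in shMif, 7.31 and 15.9 in shSCR, 32.9 and 44.1 in sgMif, and 34.7 and 38.7 in sgSCR. Fzd2, which can bind Wnt5a, was the highest receptor in 7 libraries and came after Fzd7 in shSCR 1. Fzd7, a receptor found on many stem cells, stood at 8.26 and 6.84 TPM in shMif, 8.42 and 7.30 in shSCR, 7.93 and 9.20 in sgMif, and 10.2 and 8.62 in sgSCR. Fzd1 stood at 3.97 and 5.30 TPM in shMif, 2.16 and 3.23 in shSCR, 7.33 and 6.66 in sgMif, and 13.4 and 11.5 in sgSCR. The 4 groups did not overlap for Fzd1, with sgSCR the highest and shSCR the lowest, whereas for Fzd7 both sgSCR libraries lay above both shSCR libraries and the Mif-targeted groups overlapped their controls. Fzd5 stood at 6.27 and 3.88 TPM in shMif, 5.01 and 5.73 in shSCR, 5.52 and 4.41 in sgMif, and 3.01 and 4.5 in sgSCR. Fzd8 stood at 1.58 and 1.31 TPM in shMif, 0.381 and 1.08 in shSCR, 1.09 and 0.973 in sgMif, and 0.815 and 1.03 in sgSCR. Library shSCR 1 was the lowest of all 8 for Fzd1, Fzd2 and Fzd8. Fzd3, Fzd4 and Fzd6 averaged 0.560, 0.562 and 0.608 TPM, and Fzd9 and Fzd10 reached at most 20 reads and did not pass the filter.

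Among the inhibitors, Dkk2 and Dkk3 exchanged places between the systems. Dkk2, which binds LRP6 and can block it together with Kremen proteins, stood at 103 and 83.4 TPM in shMif, 106 and 90.4 in shSCR, 19.6 and 16.6 in sgMif, and 23.0 and 16.4 in sgSCR. Dkk3, a divergent member of the Dkk family, stood at 57.2 and 65.3 TPM in shMif, 44.2 and 47.1 in shSCR, 32.8 and 38.6 in sgMif, and 36.5 and 35.9 in sgSCR. Dkk2 was the leading inhibitor in all 4 hairpin libraries, and Dkk3 in all 4 guide libraries. Sfrp2, which carries a Frizzled-like domain that binds Wnt, stood at 3.71 and 3.58 TPM in shMif, 2.30 and 1.51 in shSCR, 8.74 and 1.17 in sgMif, and 5.97 and 3.47 in sgSCR. Sfrp1, of the same design, stood at 0.298 and 0.638 TPM in shMif, 0.277 and 0.219 in shSCR, 1.42 and 0.307 in sgMif, and 3.08 and 2.96 in sgSCR. Both genes differed several-fold between sgMif 1 and sgMif 2. Sfrp4, Frzb and Dkk1 averaged 0.452, 0.282 and 0.143 TPM, and Dkk4 and Wif1 reached at most 12 reads.

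Placed in order of mean level, the 17 members of at least 1 TPM formed 16 neighbouring pairs, and in 15 of them the ranges over the 8 libraries overlapped. The exception was Wnt5a, at 15 ± 1.58 TPM, above Wnt5b at 9.71 ± 2.11 TPM (SD, n = 8 libraries of all groups), with every Wnt5a value above every Wnt5b value.

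**Figure D2:**
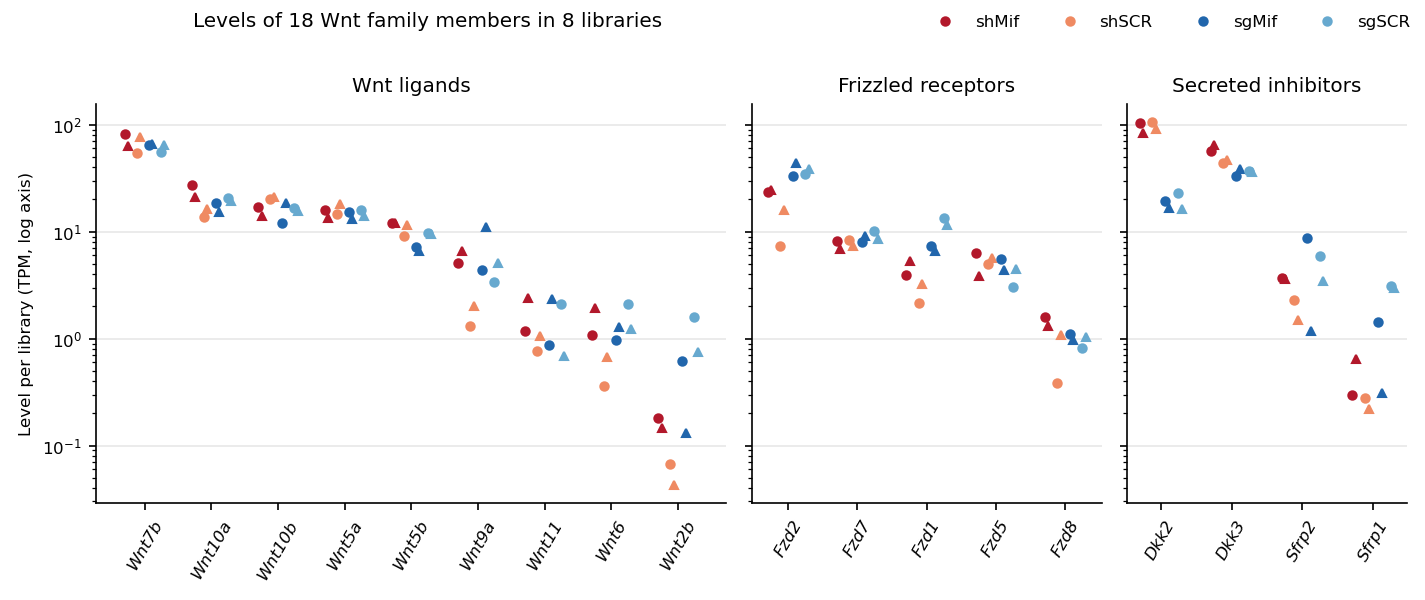
Level in TPM (vertical axis, log scale) of the 18 members given library by library, sorted by role and mean. Colours are the groups shMif, shSCR, sgMif and sgSCR from left to right, circles are library 1 and triangles library 2; Dkk2 lies at 83.4 TPM and above in the hairpin libraries and at 23.0 TPM and below in the guide libraries.

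Whether the Mif guide changed the family was asked by setting sgMif against sgSCR. Of the 39 members, 26 passed the filter on low counts and were tested among 16309 genes. EdgeR called 0 of the 26 past an adjusted p of 0.05, where 0.987% of all genes tested were called, 0.368% as higher and 0.619% as lower. At an unadjusted p under 0.05 there were 3 members, Fzd1, Sfrp1 and Wnt5a, all lower in sgMif, against 16.6% of all genes. DESeq2 gave 24 members an adjusted p and called 0, against 6.58% of genes. The median log2 fold change was -0.05 over the 26 members and -0.01 over all genes tested. In 8 members both sgMif libraries lay below both sgSCR libraries in CPM, against 24.2% of all genes, and in 1 member, Fzd5, both lay above, against 27.1%.

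Of the 5 members with the smallest p, all lower in sgMif, Wnt5a and Sfrp1 had the smallest adjusted p. Fzd1 averaged 29.7 ± 1.76 CPM in sgMif and 50.5 ± 3.20 in sgSCR (SD, n = 2 each), a log2 fold change of -0.77 ± 0.31 SE (edgeR adjusted p = 0.273). Sfrp1 averaged 3.27 ± 2.93 CPM in sgMif and 11.1 ± 0.0192 in sgSCR, a log2 fold change of -1.79 ± 0.67 (edgeR adjusted p = 0.237). The Sfrp1 value was -1.05 without sgMif 2 and -3.21 without sgMif 1. Wnt5a averaged 43.2 ± 1.86 CPM in sgMif and 56.5 ± 1.61 in sgSCR (log2 fold change -0.39 ± 0.14, edgeR adjusted p = 0.229), and the value was -0.02 with counts scaled by transcript length. Wnt5b stood at -0.48 ± 0.23 (edgeR adjusted p = 0.349), and Wnt4 at -1.39 ± 0.67 (edgeR adjusted p = 0.343). Dkk2, by contrast, stood at -0.10 ± 0.19 (edgeR adjusted p = 0.822) and Wnt7b at 0.15 ± 0.23 (edgeR adjusted p = 0.781).

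The hairpin against Mif was compared with its control in the same way, where Mif itself did not pass the test (log2 fold change -0.13 ± 0.32 SE, edgeR adjusted p = 0.925). EdgeR called 0 of the 26 members, where 0.0184% of genes were called. At an unadjusted p under 0.05 there were 5, Wnt9a, Fzd1, Fzd2, Wnt10a and Dkk3, all higher in the libraries labelled shMif, against 9.26% of all genes. DESeq2 gave 21 members an adjusted p and called 1, Wnt9a, against 1.38% of genes. The median log2 fold change was 0.68 over the 26 members and 0.03 over all genes tested. In 13 members both libraries labelled shMif lay above both shSCR libraries in CPM, against 19.4% of all genes. In 2, Wnt10b and Wnt5a, both lay below, against 22.3%, but Wnt5a overlapped its control in TPM.

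Wnt9a averaged 17.5 ± 3.78 CPM in the libraries labelled shMif and 5.01 ± 1.76 in shSCR (SD, n = 2 each), a log2 fold change of 1.81 ± 0.48 SE (edgeR adjusted p = 0.439). For Fzd2 the means were 92.4 ± 5.75 and 41.8 ± 29.5 CPM in the same order (log2 fold change 1.14 ± 0.43, edgeR adjusted p = 0.496). Fzd1 averaged 20.2 ± 4.81 CPM in shMif and 10.7 ± 5.12 in shSCR (0.91 ± 0.31, edgeR adjusted p = 0.489). Wnt10a stood at 0.61 ± 0.24 and Dkk3 at 0.39 ± 0.16 (edgeR adjusted p = 0.52 for both). The values of Fzd1, Fzd2 and Wnt10a depended on which shSCR library was used. Without shSCR 2, which leaves shSCR 1 as the only control, the log2 fold changes were 1.51 for Fzd1, 2.15 for Fzd2 and 1.08 for Wnt10a. Without shSCR 1 these were 0.49, 0.56 and 0.26. Wnt9a ranged from 1.49 to 2.22 and Dkk3 from 0.23 to 0.53 when each library of the hairpin system was left out. Mitochondrially encoded reads made up 1.62% of shSCR 1 and transcripts with a retained intron 5.41%, the lowest and the highest shares of the 8 libraries, and their part in these values was not tested.

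The effects of guide and hairpin were also compared with each other. EdgeR called 0 of the 26 members for a difference of the Mif effects, where 0.092% of genes were called, 0.00613% as higher and 0.0858% as lower. At an unadjusted p under 0.05 there were 4, Fzd1, Sfrp1, Wnt2b and Wnt5b, against 15.8% of genes. Of these, DESeq2 called Fzd1, 1 of 24 members, against 4.54% of genes. Fzd1 had a difference of -1.68 ± 0.44 SE on the log2 scale (edgeR adjusted p = 0.173), guide minus hairpin, being lower in sgMif than in sgSCR and higher in shMif than in shSCR. In the fit of both systems together, edgeR called 0 members and 0% of genes. At an unadjusted p under 0.05 there were 2 members, Wnt9a and Wnt5a, against 8.01% of genes. In CPM, 0 members lay above the controls in all 4 Mif-targeted libraries, against 1.64% of genes, and 1 lay below, Wnt5a, against 1.77%. In TPM, which is corrected for transcript length, Wnt5a overlapped its control in both systems. In the same fit DESeq2 called 1 of 23, Wnt9a, against 1.98% of genes. Wnt9a stood at 1.35 ± 0.36 in the Mif-targeted libraries relative to the controls (edgeR adjusted p = 0.323).

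**Figure D3:**
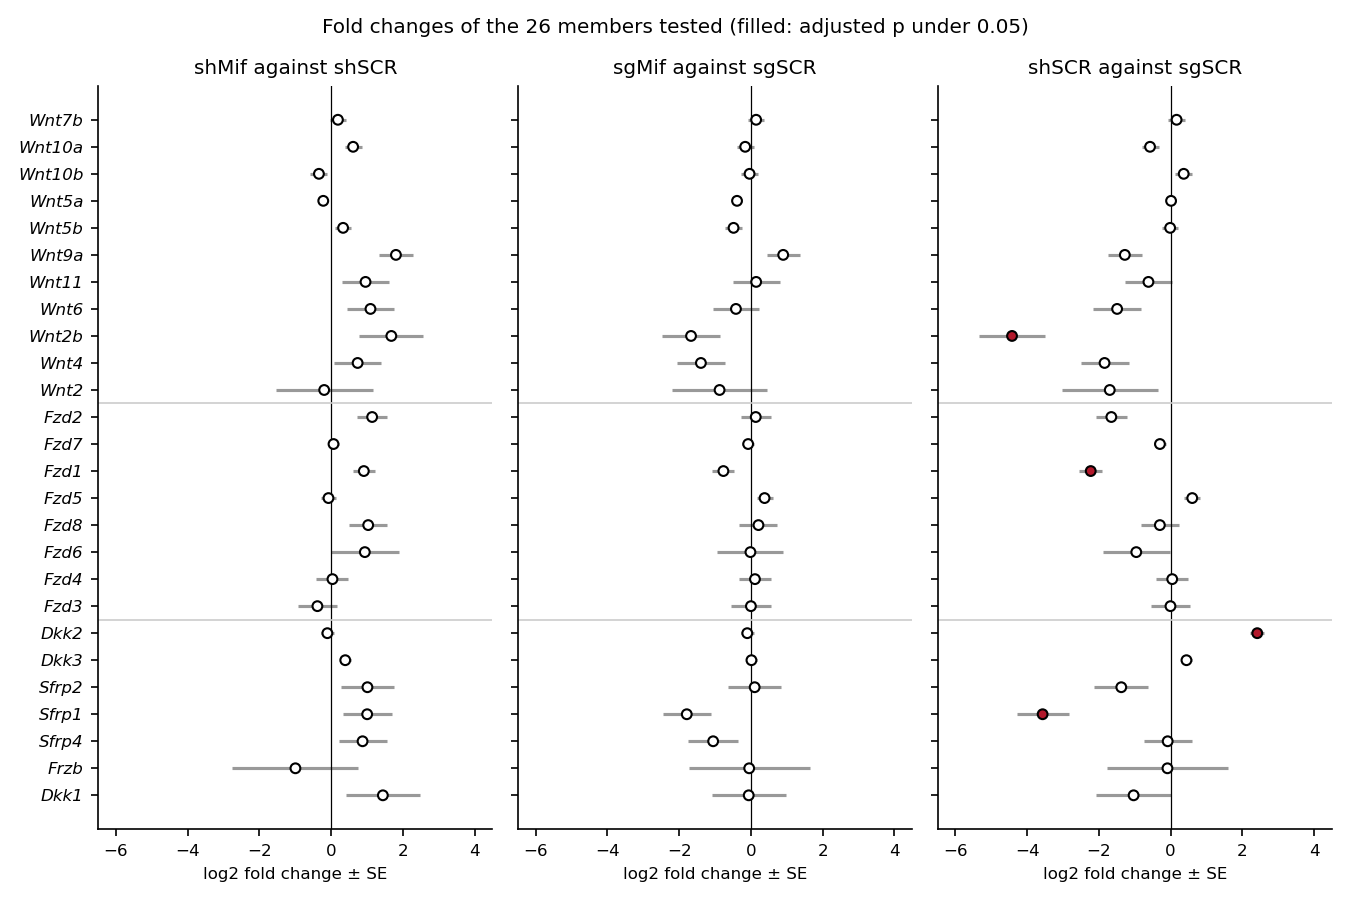
Log2 fold change with its SE (horizontal axes) of the 26 members that passed the filter on low counts, in shMif against shSCR, sgMif against sgSCR, and shSCR against sgSCR. Filled points passed an edgeR adjusted p of 0.05: 0 members in either Mif comparison, and Wnt2b, Fzd1, Dkk2 and Sfrp1 between the control groups.

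The control groups, neither of which carried a Mif reagent, differed in 4 members. Set against sgSCR, shSCR held more Dkk2 and less Fzd1, Sfrp1 and Wnt2b. These 4 of 26 members stood beside 4.02% of all genes tested, with 1 higher against 2.23% of genes and 3 lower against 1.79%. DESeq2 called 6 of 24, the same 4 with Fzd2 and Wnt9a, against 12.9% of genes. The median log2 fold change was -0.44 over the 26 members and -0.04 over all genes tested. In CPM, both shSCR libraries lay above both sgSCR libraries in 4 members, against 28.4% of genes, and below them in 13, against 26.3%. This comparison shares the sgSCR libraries with that of the guide and the shSCR libraries with that of the hairpin.

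Dkk2 showed the clearest difference in the family. It averaged 291 ± 31.3 CPM in shSCR and 54.5 ± 12.7 in sgSCR (SD, n = 2 each), 5.34-fold higher in shSCR (log2 fold change 2.42 ± 0.19 SE, edgeR adjusted p = 0.00197). It passed the threshold under every alternative tried, with log2 fold changes of 2.23 to 2.69 when each library was left out in turn. Dkk2 has only 1 transcript in the files, of 4 exons. The Mif-targeted libraries stood close to the controls of their own system, at 271 ± 26.3 CPM in shMif and 50.9 ± 3.92 in sgMif.

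Fzd1, a receptor gene of a single exon, averaged 10.7 ± 5.12 CPM in shSCR and 50.5 ± 3.20 in sgSCR, 4.69-fold lower in shSCR (log2 fold change -2.23 ± 0.32 SE, edgeR adjusted p = 0.016). Its adjusted p was 0.0765 without sgSCR 1 and 0.0774 without sgSCR 2. Sfrp1 averaged 0.936 ± 0.0689 CPM in shSCR and 11.1 ± 0.0192 in sgSCR (log2 fold change -3.57 ± 0.72 SE, edgeR adjusted p = 0.039). Wnt2b averaged 0.161 ± 0.0285 CPM in shSCR, from 7 reads in each library, and 3.51 ± 1.65 in sgSCR, from 186 and 47 reads (log2 fold change -4.42 ± 0.93 SE, edgeR adjusted p = 0.0424). The calls of Sfrp1 and Wnt2b were lost without either sgSCR, shSCR or shMif library, with adjusted p of up to 0.171 for Sfrp1 and 0.182 for Wnt2b, and with a term for the library class, at -3.36 and -3.87 (edgeR adjusted p = 0.0541 for Sfrp1 and 0.055 for Wnt2b). With that term Fzd2 and Wnt9a passed instead. Fzd2 stood at -1.65 ± 0.43 (edgeR adjusted p = 0.0739), with means of 41.8 ± 29.5 CPM in shSCR and 132 ± 16.9 in sgSCR.

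**Figure D4:**
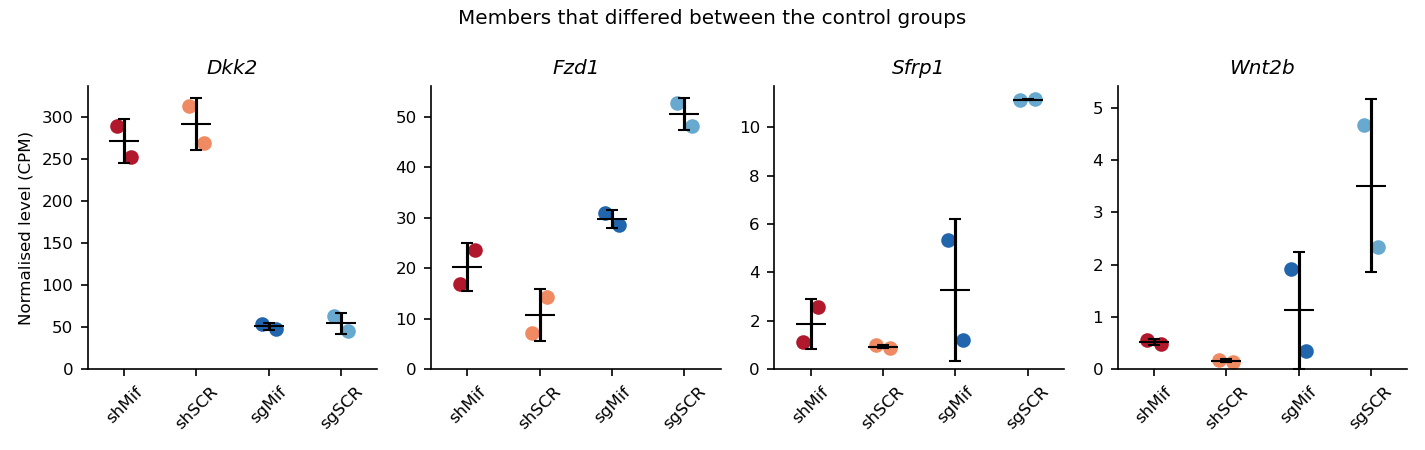
Normalised level in CPM (vertical axes, from 0) of Dkk2, Fzd1, Sfrp1 and Wnt2b in shMif, shSCR, sgMif and sgSCR. Points are libraries and bars are mean and SD of 2 libraries; Dkk2 lies at 252 to 313 CPM in the hairpin libraries and 45.4 to 63.5 CPM in the guide libraries.

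Some markers of cell types also differed between groups. The sarcoma line was itself made from mesenchymal stem cells, so the fibroblast list below cannot tell host fibroblasts from tumour cells. The 11 host skin fibroblast markers, 10 of which averaged at least 1 TPM and 0 of which were at 0 in all libraries, summed to 833 and 1016 TPM in shSCR and 1649 and 1437 in sgSCR, and 3 of them passed as lower in shSCR. Dcn was the largest part of this sum, at 383 and 445 TPM in shSCR and 1092 and 900 in sgSCR. Cd34 stood at 84.9 and 106 TPM in shSCR and 83.4 and 86.2 in sgSCR. Pdgfra stood at 174 and 133 TPM in shSCR and 115 and 147 in sgSCR, and for both genes the groups overlapped. Over all libraries Ly6c1 stood at 91.0 to 349 TPM, Pi16 at 1.67 to 7.80 and Dpp4 at 0.0977 to 1.31. In shMif the 11 markers summed to 1127 and 987 TPM, and in sgMif to 620 and 460, with 1 lower in sgMif than in sgSCR. The 9 endothelial markers, 5 of which averaged at least 1 TPM, summed to 129 and 25.2 TPM in shSCR and 178 and 200 in sgSCR, and to 125 and 27.7 in sgMif 1 and 2, where Sfrp1 held 5.34 and 1.19 CPM and Wnt2b 1.92 and 0.338. In shMif 1 and 2 they summed to 114 and 34 TPM, where Sfrp1 held 1.13 and 2.59 CPM and Wnt2b 0.566 and 0.483. In shSCR 1 and 2 Sfrp1 held 0.985 and 0.888 CPM and Wnt2b 0.181 and 0.141. In sgSCR 1 and 2 Sfrp1 held 11.1 and 11.2 CPM and Wnt2b 4.68 and 2.34. Of the endothelial markers 0 passed in any comparison, and Pecam1 was the largest part of the sum in the control libraries, at 115 and 11.5 TPM in shSCR and 164 and 174 in sgSCR. Pecam1 stood at 70.7 to 174 TPM in the 5 libraries of the high olfactory class and at 11.5 to 22.1 TPM in the others. Cdh5, a defining endothelial gene, stood at 5.59 and 6.71 TPM in shSCR and 2.27 and 8.17 in sgSCR, and the groups overlapped. The 14 macrophage markers summed to 491 and 234 TPM in shMif, 247 and 284 in shSCR, 163 and 117 in sgMif, and 405 and 206 in sgSCR. Of these, 2 passed as lower in sgMif than in sgSCR and 1 as lower in shSCR than in sgSCR. Of the 9 mesenchymal markers, 2 passed as higher in shSCR than in sgSCR. Of the pericyte, skeletal muscle, adipocyte, B cell and T or NK cell markers, 0 passed in any comparison. The part of these markers in the member values was not tested, and in bulk samples fewer cells of a type and less RNA per cell cannot be told apart. Among the 5 libraries of the high olfactory class, shSCR 1 was the only one of shSCR. Between the controls, log2 fold changes there were 2.52 for Dkk2, -2.82 for Fzd1, -3.49 for Sfrp1 and -4.24 for Wnt2b.

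The promoters of Dkk2, Fzd1 and Wnt2b are printed because these members differed between the control groups. They are the 250 bases before the RefSeq start in build GRCm38.p6, written along the gene's strand. Capitals mark matches on either strand to a GC box (GGGCGG) or a TATA box (TATAAA). The TCF/LEF core CTTTGAT, the site read by the nuclear partners of beta-catenin, and the E-box CACGTG were searched too and have no match in these windows. Dkk2 lies at chr3:132085042-132085291 on the plus strand, Fzd1 at chr5:4758217-4758466 on the minus strand and Wnt2b at chr3:104961710-104961959 on the minus strand. The gene model used for the counts starts at base 104961921 for Wnt2b, so most of that window lies inside the gene. For Fzd1 the model starts at base 4758035, so that window lies before the gene and does not reach its start.
Dkk2: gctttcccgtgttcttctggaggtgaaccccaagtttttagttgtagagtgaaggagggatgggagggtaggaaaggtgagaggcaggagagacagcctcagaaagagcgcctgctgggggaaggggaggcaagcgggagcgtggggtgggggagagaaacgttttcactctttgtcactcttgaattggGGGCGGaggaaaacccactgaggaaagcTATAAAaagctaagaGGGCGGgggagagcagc
Fzd1: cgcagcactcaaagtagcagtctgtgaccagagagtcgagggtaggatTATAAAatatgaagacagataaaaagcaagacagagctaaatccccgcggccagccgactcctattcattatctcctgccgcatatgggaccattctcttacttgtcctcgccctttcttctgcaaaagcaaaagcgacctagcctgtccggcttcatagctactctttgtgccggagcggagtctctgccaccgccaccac
Wnt2b: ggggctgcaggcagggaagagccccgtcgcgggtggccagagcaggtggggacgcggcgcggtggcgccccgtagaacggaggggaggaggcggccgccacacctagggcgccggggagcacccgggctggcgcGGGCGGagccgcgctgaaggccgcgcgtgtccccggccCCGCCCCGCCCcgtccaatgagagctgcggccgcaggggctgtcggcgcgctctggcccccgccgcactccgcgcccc

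The Dkk2 window held 2 GC boxes and 1 TATA box, the Fzd1 window 1 TATA box, and the Wnt2b window 3 GC boxes, of which a pair overlap by their end base. Their G and C content was 55.6% for Dkk2, 51.2% for Fzd1 and 80.8% for Wnt2b, against a median of 52.4% over all 32851 promoters. RefSeq promoters matched 27 of the 39 members, with 30 windows. A match at any position was counted. Of the 30 windows, 22 held a GC box (73.3%), against 32.7% of all promoters, and 5 held a TATA box (16.7%), against 12.4%. The TCF/LEF core was found in 2 of the 30 (6.67%), those of Wnt11 and Wnt5b, against 3.21% of all promoters, and the E-box in 3 (10%), against 6.02%.

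Other genes of the pathway were taken from 8 lists of 91 genes, of which 77 were tested. In sgMif against sgSCR, 2 of the 77 fell and 0 rose, 2.60% beside 0.987% of all genes. They were Tpbg, a membrane glycoprotein that dampens beta-catenin signalling in zebrafish (log2 fold change -0.85 ± 0.14 SE, edgeR adjusted p = 0.0404), and Prickle1, of the planar polarity pathway (-1.19 ± 0.16, edgeR adjusted p = 0.032). Both lay close to the threshold, and neither was followed under the alternative fits. Over all genes, the guide comparison had 161 calls, against 18 with counts scaled by transcript length and 990 with DESeq2. In shMif against shSCR, 0 of the 77 passed in edgeR, and Tpbg stood at 0.21 and Prickle1 at -0.38. Between shSCR and sgSCR, 1 rose and 8 fell, 11.7% beside 4.02% of all genes. At an unadjusted p under 0.05 there were 9 of the 77 for the guide, against 16.6% of all genes, 10 for the hairpin, against 9.26%, and 37 between the controls, against 22.9%.

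Genes of Wnt release and reception had 0 calls for the guide. Porcn, which attaches the lipid to Wnt, stood at -1.44 (edgeR adjusted p = 0.0834), Notum, which removes it, at -0.94, and the carrier Wls at -0.01 in sgMif against sgSCR. Of the 8 co-receptors, 0 passed, and the smallest p values were those of Ryk at 0.36, Ror2 at 0.45, Lrp5 at 0.13 and Lrp6 at 0.15 on the log2 scale. Ptk7 (-1.07, edgeR adjusted p = 0.037) and Gpc4 (-1.14, edgeR adjusted p = 0.0404) were lower in shSCR than in sgSCR. In the R-spondin and Lgr branch 5 of 9 genes were tested and 0 passed, with Lgr4 at 0.72, Rspo3 at -2.78, Lgr6 at 1.31 and Lgr5 at -1.66. Among 8 further inhibitors tested, Tpbg fell, while Draxin stood at -1.48, Notum at -0.94 and Igfbp4 at -0.34. Tpbg (-0.75, edgeR adjusted p = 0.0341) and Trabd2b, a protease that inactivates Wnt (-2.42, edgeR adjusted p = 0.0232), were also lower in shSCR than in sgSCR.

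Inside the cell, 0 of 15 genes of the cytoplasmic core passed for the guide, with Apc at 0.30, Ctnnb1, the gene of beta-catenin, at 0.29, Axin1 at 0.22 and Tnks at 0.18. Nor did any of 14 nuclear factors, where Ctnnbip1 stood at 0.48, Tcf7 at 0.28, Tle2 at -0.43 and Lef1 at 0.30. Tcf7l1, which represses targets, was lower in shSCR than in sgSCR (-1.94, edgeR adjusted p = 0.0215). Of 20 listed targets of beta-catenin, 19 matched a symbol and 14 were tested, and 0 passed for the guide, with Ccnd1 at 0.59, Bmp4 at 0.48, Notum at -0.94 and Nkd1 at 2.60. Axin2, a standard readout of the pathway chosen outside the rule on p, stood at -0.20 for the guide, 0.38 for the hairpin and -0.56 between the controls, with 0 of the 3 values past the threshold. Bmp4, a growth factor, was higher in shSCR than in sgSCR (2.45, edgeR adjusted p = 0.00228) and Myc lower (-0.65, edgeR adjusted p = 0.049). In the planar polarity list of 19, Daam2 stood at -1.37, Ror2 at 0.45 and Celsr2 at -1.68 for the guide, and Daam2 (-1.93, edgeR adjusted p = 0.0231) and Nfatc1 (-0.99, edgeR adjusted p = 0.0368) were lower in shSCR than in sgSCR.

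**Figure D5:**
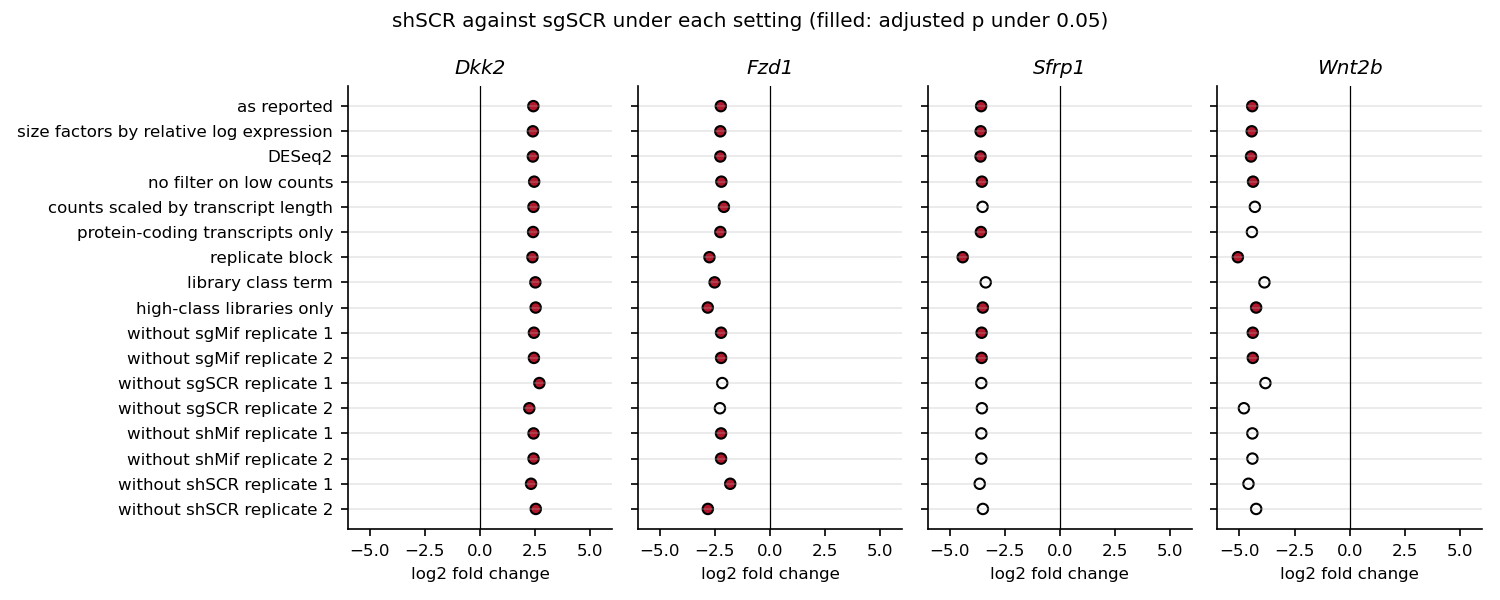
Log2 fold change of Dkk2, Fzd1, Sfrp1 and Wnt2b in shSCR against sgSCR (horizontal axes) under the reported fit and each alternative (rows). Filled points passed an adjusted p of 0.05; Dkk2 passed in every row and Fzd1 in all but those without an sgSCR library, while Sfrp1 and Wnt2b did not pass in several.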

How the data were processed

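The 8 libraries were bulk RNA sequencing of mouse sarcoma cells sorted from tumours, grouped by their sample titles. Per the submitters' processing notes, Trimmomatic and Salmon were used with build mm10. Their versions and options, the kit and the strandedness were not stated there or in the labels. The deposited tables hold, per the file headers, an estimated count of reads (NumReads) and a TPM value for each of 116546 transcripts. The authors' TPM column corrects for effective length and adds up to 1000000 per library. Transcripts were joined to GENCODE M21 genes without their version number, which matched 115977, and the 569 unmatched ones held 0.101 to 0.205% of reads.

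Estimated counts were summed per gene and rounded, and deposited TPM was summed per gene. Genes were kept by filterByExpr in edgeR 4.0.16 (minimum count 10, minimum total 15), scaled by TMM, and entered in the quasi-likelihood test of edgeR under R 4.3.3. P-values were adjusted by the Benjamini-Hochberg method over all 16309 genes tested, with a threshold of 0.05. A fit of 4 group means had 4 residual degrees of freedom, and a fit with 1 shared Mif effect beside the system had 5. CPM values were computed here from the scaled counts. Depth ran from 19042235 to 51819308 reads per library, so that 3 reads correspond to 0.0579 to 0.158 CPM, for counting error only.

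Values in every library are given for members with a mean of at least 1 TPM or past the threshold in any comparison. Fold changes are given for members past the threshold and for the 5 with the smallest p in each Mif comparison. Up to 4 genes per pathway list are named by the smallest p in sgMif against sgSCR, with any past the threshold elsewhere. The members, the pathway lists and the marker lists were chosen with earlier results of these data known. The fits were tested on simulated counts. The alternatives comprised RLE size factors, DESeq2 1.42.0, leaving out the filter, counts scaled by transcript length, protein-coding transcripts only, a replicate block, each system alone, a term for the library class, the 5 libraries of the high class, and leaving out each library. The high class held 2 libraries of sgSCR and 1 of each other group, so there the fit of 4 group means took its spread from the sgSCR pair alone. No p-value was computed for a list.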

Additional observations from a re-analysis of the deposited data

How the results depend on the processing

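The alternatives were run on 14 log2 fold changes, the 5 members of smallest p in each Mif comparison and the 4 called between the controls, and these 14 kept their direction. Of the counts of calls under the alternatives, 72 moved by over 1.5 times and 92 did not, and the cause was not tested. For sgMif against sgSCR, 161 genes were called, against 990 with DESeq2, 1494 with no filter, 18 with counts scaled by transcript length, 49 with a library class term, 534 in the high-class libraries and 263 with the replicate block. For shMif against shSCR, 3 were called, against 182, 662, 5, 7, 1162 and 14 in the same order, and 0 with each system alone. For the difference of the effects, 15 were called, against 654 with DESeq2, 1306 with no filter, 0 with length scaling, 0 with protein-coding transcripts, 999 in the high-class libraries and 50 with the replicate block. For shSCR against sgSCR, 655 were called, against 1948, 2425, 312 with length scaling, 2747 in the high-class libraries and 210 with the replicate block. For both systems together, 0 were called, against 279 with DESeq2 and 549 with no filter. Leaving out each library gave 0 to 356, 0 to 758, 0 to 527, 60 to 1848 and 0 to 1 genes in these 5 comparisons.

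Members called for sgMif against sgSCR were 0, and 3 with no filter. For shMif against shSCR they were 0, against 1 with DESeq2, 3 with no filter and 6 in the high-class libraries. For the difference they were 0, against 1, 3 and 3 in that order, and for both systems together 0, against 1 with DESeq2 and 2 with no filter. For shSCR against sgSCR they were 4, against 8 with no filter, 2 with length scaling and 7 in the high-class libraries. Leaving out each library gave 0, 0 to 4, 0 to 3, 1 to 4 and 0 members. A group left with 1 library, as were shMif, shSCR and sgMif in the high class, borrowed its spread from the remaining groups. The labels do not say that replicate numbers pair libraries. Deviations of same-numbered libraries correlated at 0.182 in the guide system and 0.263 in the hairpin system, over 2 pairs, and with the replicate block the same number of members, 4, was called between the controls. Low members are limited by depth, as in Wnt2b with 7 reads in each shSCR library.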

Other observations

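Some member values depended on which transcript the reads were assigned to. Fzd6 had only 9 to 17 reads per library, and in sgSCR 2 a transcript of 458 bases marked for nonsense-mediated decay took 81.8% of them, so that its level there was 2.45 TPM, against 0.0693 to 1.28 TPM in the other 7 libraries. Reads of Wnt7b were spread over several coding transcripts, and Wnt7b-205 took 75.3% of them in shSCR 1, 37.2% in shSCR 2 and 0% in shMif 1. Of Wnt5a reads, 43.8 to 58.8% lay on Wnt5a-201 (7010 bases) and 38.4 to 52.6% on Wnt5a-202 (3650 bases). Wnt11 and Wnt6 counted among the 17 members of at least 1 TPM over all their transcripts. Coding transcripts held 3.90 to 100% of the Wnt11 level and 35.9 to 100% of the Wnt6 level. A Wnt11 transcript marked for nonsense-mediated decay took 91.9% of its reads in shSCR 1. On coding transcripts Wnt6 stood at 0.619 and 0.707 TPM in shMif and 0.363 and 0.676 in shSCR, which overlapped. Dkk2, Dkk3, Sfrp1, Fzd1, Fzd2 and Fzd7 have only 1 transcript each in the files, so their reads could not be split.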
